A study of Rattus norvegicus with 31 samples.

Results

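The livers compared here came from 2 groups of rats that received the same insecticide, clothianidin (CTD), at nearly the same dose, and differed in the second pesticide given with it. The partner was thiacloprid (THI), like CTD a neonicotinoid insecticide, in 4 rats, and imazalil (IMZ), an imidazole fungicide, in the 4 others. These 8 libraries, of 31 in the series, were chosen by their sample labels and tested directly against each other. Of 26312 genes in the count table, the test covered the 19904 that had 2 or more counts when the 31 libraries were summed. The animals were female Wistar rats of the stock Crl:WI, young adults dosed by gavage every day for 28 days, in a study of the 3 pesticides alone and in pairs, with mixtures set to equal potency by relative potency factors. Daily doses in mg per kg of body weight were 54 for THI and 134 for CTD in the THI + CTD rats, and 46 for IMZ and 135 for CTD in the IMZ + CTD rats. Besides these, the series holds 8 controls given only the vehicle, aqueous carboxymethyl-cellulose, which all groups received, and groups treated with THI (108 mg/kg bw/day, 4 rats), IMZ (93 mg/kg bw/day, 4 rats), CTD (288 mg/kg bw/day, 3 rats) and THI + IMZ (4 rats). Each rat was an independent biological replicate, and bulk total RNA of the liver was sequenced, so that fewer cells of a type and less RNA per cell cannot be told apart.

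Liver cells sense foreign compounds through nuclear receptors. CAR and PXR switch on cytochrome P450 enzymes, conjugating enzymes and transporters, while PPARA, a receptor for fatty acids, switches on the peroxisomal and mitochondrial genes of fatty acid oxidation. The liver also runs a circadian clock, whose output factors Dbp, Hlf and Tef bind the promoters of many metabolic genes, among them genes of drug metabolism. The question of the comparison is therefore which of these programs differed in the liver when the partner of CTD was exchanged at an equal dose of CTD.

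Library depth ran from 35.8 M to 47.1 M counts in THI + CTD and from 31.9 M to 36.6 M in IMZ + CTD. Mitochondrial transcripts took 1.34% to 1.57% of the counts in the first group and 1.18% to 1.57% in the second. All 10 defining hepatocyte markers were present in all libraries, and together they took 185000 to 237000 CPM (reads of a gene relative to library size, after TMM scaling) in THI + CTD and 220900 to 278100 CPM in IMZ + CTD. Some libraries stood apart. THI + CTD replicate 4 had the lowest cell division genes and hepatocyte markers of its group, THI + CTD replicate 3 had the highest hemoglobin transcripts, and replicates 2 and 3 of THI + CTD carried far more lipogenic transcripts than replicates 1 and 4. These values are given beside the results they touch.

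Exchanging the partner changed few genes past the threshold. A total of 35 genes (0.176% of those tested) differed at an adjusted p under 0.05 in the quasi-likelihood test of edgeR with Benjamini-Hochberg adjustment, 24 higher (0.121%) and 11 lower (0.0553%) in THI + CTD. Among those of the 35 with a mean log2 CPM above 0, the largest log2 differences upward were those of Grin2c, Hlf, Por and Plekha4. The largest downward were those of a gene without a symbol, Ky, Amdhd1 and Tdo2. Some genes that were not called, such as Cyp2b1 (log2 3.59), differed by more. Of the 35 genes, 14 differed by more than 1 on the log2 scale and the smallest difference was 0.36. The libraries of both groups did not overlap for 33 of them, the exceptions being Lama3 and ENSRNOG00000048912. As the 35 were called on these same 8 libraries, this count is no separate evidence. Of all genes tested, 2.70% had all THI + CTD libraries above and 2.50% all below. All 35 were also called by the Wald test of DESeq2, which called 189 genes (0.950%) in total, 0.477% of all genes higher and 0.472% lower. The edgeR fit of only the 2 groups called 86 genes, among them 25 of the 35. At an unadjusted p under 0.05, 1065 genes (5.35%) were higher and 1000 (5.02%) lower. In counts simulated at the depth and spread of these libraries, the edgeR test recovered 89.6% of genes changed by 1 on the log2 scale and 47.8% of those changed by 0.5. The changed genes were drawn only from those with a mean above 1 CPM, so these rates do not cover genes below that level. They also do not cover genes with single rats that stand apart, since the simulated counts followed the fitted spread.

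The count of 35 was lower with any 1 of the 8 libraries left out. Each such fit also held 1 rat fewer, and the cause of the drop was not tested. Without THI + CTD replicate 2 the count dropped to 3 genes, without replicate 3 to 8 and without replicate 1 to 27. It was 18 without IMZ + CTD replicate 1, 9 without replicate 2, 9 without replicate 3 and 8 without replicate 4. Without THI + CTD replicate 4, the library that stood apart in cell division, 31 genes were called, 22 of them among the 35. All 35 genes kept their direction with any of the 8 libraries left out. The 3 genes Paqr7, Acot3 and Cdo1 kept an adjusted p under 0.05 in all 8 such fits, Acot12 in 7, and Fbxo27 and Abcd3 in 6. With counts thinned to equal depth, 36 genes were called, among them all 35.

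Over all genes, the squared distance between the group means was 0.336 times the mean squared distance between rats of the same group, where a ratio of 0.25 would follow if the groups did not differ. The observed grouping gave the largest ratio of all 35 ways to divide the 8 libraries into 4 and 4 (one-sided p = 0.0286 by exact permutation, which is the lowest value 8 libraries can give). Yet most genes differed little: of the 11231 genes with a mean log2 CPM above 0, the middle 50% lay between -0.11 and 0.14 on the log2 scale, with a median of 0.02.

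**Figure D1:**
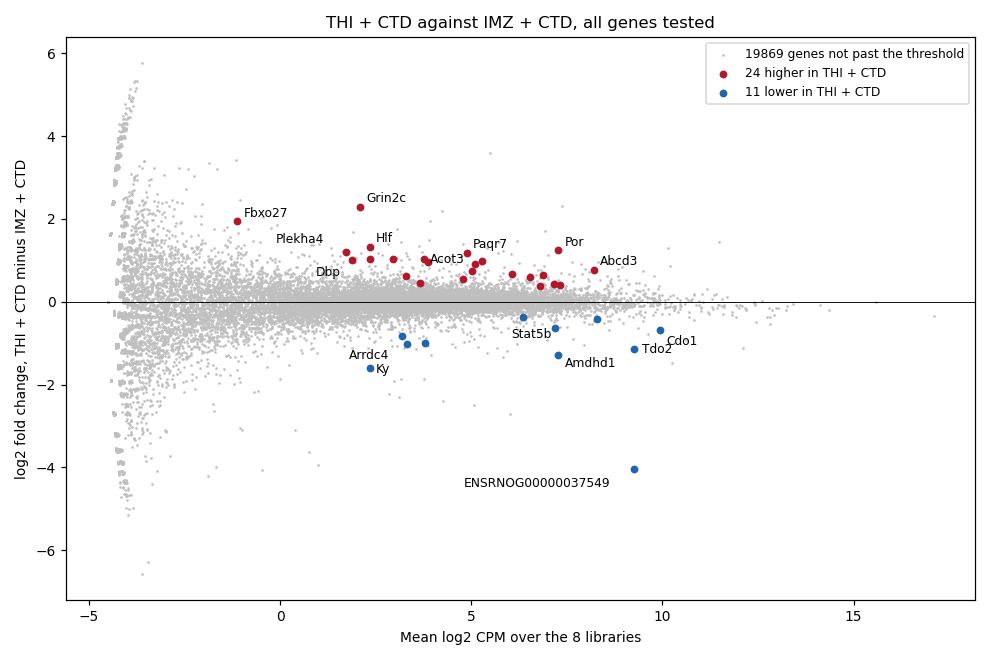
Each point is 1 of the 19904 genes tested, with its mean log2 CPM over the 8 libraries on the x axis and the log2 fold change of THI + CTD minus IMZ + CTD on the y axis. The 24 red genes were higher and the 11 blue genes lower in THI + CTD (adjusted p under 0.05), and the steep bands at the left are genes with a handful of counts.

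PPARA targets were the group with the most genes called. Of 37 measured members, 4 rose in THI + CTD relative to IMZ + CTD, none fell and 33 did not pass the test. The median log2 difference of the list was 0.40, against 0.00 over all genes tested. In 20 of the 37, all 4 THI + CTD libraries lay above all 4 IMZ + CTD libraries, which 2.70% of all genes and 4.10% of genes with a mean log2 CPM above 0 did. The reverse order, found in 2.50% and 3.61% of these genes, was found in no member. The DESeq2 test called 13 members, all higher. Of all genes, edgeR called 0.121% higher and DESeq2 0.477%. The median stayed between 0.36 and 0.44 with any library left out, while the number of members called ran from 1 to 4.

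Acot3, an acyl-CoA thioesterase of peroxisomes, measured 23.1, 16.1, 17.4 and 21.5 CPM in THI + CTD and 12.6, 7.01, 10.4 and 8.54 CPM in IMZ + CTD. No library of one group reached into the range of the other, and the 8 controls, at 9.83 to 14.5 CPM, overlapped the IMZ + CTD rats only. The log2 difference was 1.02 (SE 0.17, adjusted p = 0.00781). Pex11a, which drives the division of peroxisomes, measured 25.4, 19.8, 17.3 and 20.0 CPM against 12.1, 7.44, 11.1 and 12.1 CPM. Its groups were again separate, with a log2 difference of 0.95 (SE 0.17, adjusted p = 0.0158). Acot2, the mitochondrial thioesterase, measured 56.3, 48.2, 44.1 and 41.4 CPM against 30.1, 22.4, 24.5 and 24.02 CPM, a log2 difference of 0.91 (SE 0.19, adjusted p = 0.0279). Acot2 and Acot3 belong to a cluster of closely similar genes, and only uniquely mapped reads were counted, so reads that fit both equally were left out. Eci2, an enoyl-CoA isomerase that prepares unsaturated fatty acids for oxidation, showed a smaller but narrow difference, with 201, 192, 173 and 174 CPM against 145, 140, 138 and 135 CPM (log2 0.40, SE 0.09, adjusted p = 0.0332).

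Set against the same 8 controls, the estimates of the 4 genes had opposite signs in the 2 mixtures, and those of IMZ + CTD were not past the threshold. Acot3 was 0.73 above control in THI + CTD on the log2 scale (adjusted p = 0.00183) and at -0.28 in IMZ + CTD (adjusted p = 0.426). Pex11a was at 0.75 (adjusted p = 0.00195) and -0.19 (adjusted p = 0.644). Acot2 was at 0.68 (adjusted p = 0.00893) and -0.23 (adjusted p = 0.596), and Eci2 at 0.24 (adjusted p = 0.0571) and -0.17 (adjusted p = 0.327). The median of the 37 members was 0.20 for THI + CTD and -0.20 for IMZ + CTD. In single rats, the mean of the 35 members with a mean log2 CPM above 0, relative to the control mean, was 0.41, 0.29, 0.17 and 0.31 in THI + CTD and -0.17, -0.14, -0.13 and -0.10 in IMZ + CTD. The controls themselves ran from -0.20 to 0.32, and thus covered the IMZ + CTD rats and 3 of the 4 THI + CTD rats. Both comparisons share the controls and are given side by side only. Levels in the range of THI + CTD also occurred in rats given 1 pesticide alone, at higher doses. In the order THI, IMZ and CTD, Acot3 measured 11.69 to 17.35, 15.07 to 19.31 and 15.75 to 18.16 CPM. Acot2 measured 26.8 to 40.7, 37.9 to 57.3 and 41.8 to 53.95 CPM. Pex11a measured 11.6 to 17.5, 12.0 to 17.7 and 15.9 to 17.7 CPM. Eci2 measured 155 to 180, 155 to 170 and 167 to 174 CPM. The list mean per rat was 0.01 to 0.28, -0.04 to 0.16 and 0.15 to 0.19.

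Further genes of fatty acid handling that are in none of the lists rose past the threshold. Abcd3, the peroxisomal membrane transporter PMP70, measured 422, 445, 396 and 288 CPM in THI + CTD and 241, 209, 230 and 231 CPM in IMZ + CTD (log2 0.77, SE 0.13, adjusted p = 0.0119). Acot12, which cleaves acetyl-CoA in the cytosol, measured 133, 128, 116 and 131 CPM against 92.2, 96.1, 100.8 and 99.2 CPM (log2 0.39, SE 0.07, adjusted p = 0.0119). Mgll, the monoacylglycerol lipase, was more scattered, with 133, 190, 167 and 103 CPM against 92.3, 92.7, 99.6 and 92.3 CPM (log2 0.65, SE 0.14, adjusted p = 0.0333). Acot12 and Mgll fall outside the rule for named genes and were singled out after their values had been seen. The separation held for all 3 genes, though THI + CTD replicate 4 came close to the other group for Mgll.

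**Figure D2:**
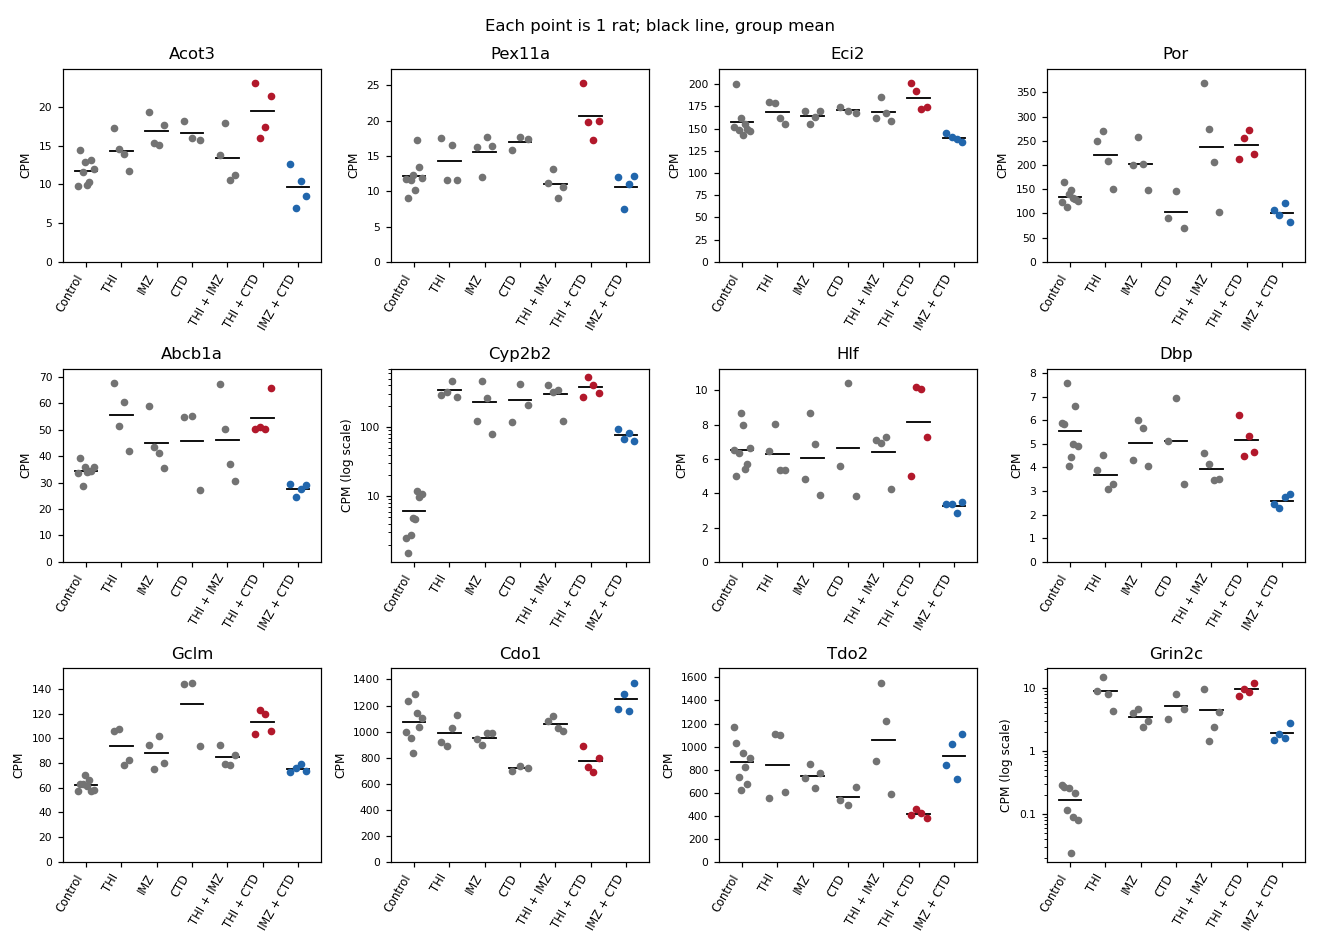
CPM of 12 genes in each of the 31 rats, by group, with THI + CTD in red, IMZ + CTD in blue and a black line at the group mean. The y axis is linear from 0 except for Cyp2b2 and Grin2c, where it is logarithmic. The red and blue points do not overlap in any of the 12 panels, and for Dbp all 4 IMZ + CTD rats, at 2.30 to 2.86 CPM, lie below all 8 controls.

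Among the 26 measured targets of CAR and PXR, 2 rose in THI + CTD relative to IMZ + CTD, none fell and 24 did not pass the test. The median log2 difference was 0.58. In 9 members the 4 THI + CTD libraries lay above the 4 IMZ + CTD libraries and in none below, against 2.70% and 2.50% of all genes. The DESeq2 test called 7, all higher. Of all genes, edgeR called 0.121% higher and DESeq2 0.477%. With 1 library left out the median stayed between 0.54 and 0.67 and the members called between 0 and 3. The gene that rose most firmly was Por, the reductase that passes electrons to all microsomal cytochromes P450. It measured 213, 256, 272 and 223 CPM in THI + CTD and 107, 97.0, 121 and 82.3 CPM in IMZ + CTD, a 2.37-fold difference (log2 1.24, SE 0.24, adjusted p = 0.0268). Its groups were separate, and of the 2 mixtures the controls, at 113 to 165 CPM, overlapped IMZ + CTD only. With 1 pesticide alone it measured 151 to 270 CPM (THI), 149 to 258 CPM (IMZ) and 69.2 to 147 CPM (CTD). Against control Por was 0.84 higher in THI + CTD (adjusted p = 0.0122) and at -0.40 in IMZ + CTD (adjusted p = 0.438). Abcb1a, the efflux transporter P-glycoprotein, measured 50.5, 50.9, 50.5 and 66.0 CPM against 29.3, 24.5, 27.7 and 29 CPM (log2 0.98, SE 0.20, adjusted p = 0.0268). It was 0.66 above control in THI + CTD (adjusted p = 0.0163) and at -0.32 in IMZ + CTD (adjusted p = 0.449).

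The classic P450 targets of CAR showed larger but more variable differences that missed the threshold. Cyp2b1 measured 77.3, 403, 200 and 217 CPM in THI + CTD and 55.6, 8.12, 6.23 and 4.62 CPM in IMZ + CTD, so that 1 IMZ + CTD rat came near the lowest THI + CTD rat (log2 3.59, SE 0.90, adjusted p = 0.0938). Leaving out single libraries moved its log2 difference between 3.14 and 5.14 and brought it past the threshold in 1 of 8 fits, without IMZ + CTD replicate 1 (log2 5.14, adjusted p = 0.0367). Cyp2b2 measured 272, 525, 408 and 310 CPM against 93.8, 66.7, 82.5 and 63.4 CPM (log2 2.31, SE 0.51, adjusted p = 0.0523). The sequences of the Cyp2b genes are close to each other, and only uniquely mapped reads were counted, so reads that fit both equally were left out. Both genes were far above control in either mixture: Cyp2b2 rose by 5.96 on the log2 scale in THI + CTD (adjusted p = 3.67e-10) and by 3.65 in IMZ + CTD (adjusted p = 7.57e-06), and Cyp2b1 by 8.78 (adjusted p = 9.33e-08) and 5.20 (adjusted p = 0.000718). Abcc3, which exports conjugates into the blood, measured 65.8 to 96.8 CPM against 28.2 to 47.7 CPM (log2 1.18, SE 0.27, adjusted p = 0.0727). Aldh1a1, a retinal dehydrogenase, measured 402 to 568 CPM against 172 to 348 CPM (log2 0.99, SE 0.29, adjusted p = 0.171). For Cyp3a23/3a1, a steroid and drug hydroxylase, the ranges of 0.554 to 2.19 and 0.353 to 0.954 CPM overlapped (log2 0.95, SE 0.39, adjusted p = 0.378). Its counts were low, with a mean log2 CPM of -0.14 over the 8 libraries. The paper reports that sequencing underestimated its rise relative to qPCR. In all 5 genes the THI + CTD mean was the higher, and the call depended on the fit. DESeq2 called Cyp2b2 (adjusted p = 0.00621), Abcc3 (0.0159) and Cyp2b1 (0.0175). The edgeR fit of only these 2 groups called Cyp2b2 (adjusted p = 0.000169), Abcc3 (0.00868) and Aldh1a1 (0.0314).

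The list of 29 xenosensor receptors and partners had a median of 0.07, and Por was the 1 member called. Targets of NRF2, which answers to oxidative stress, had a median of 0.12 over 24 members. At an unadjusted p under 0.05, 8 were higher and 0 lower, against 5.35% and 5.02% of all genes. All THI + CTD libraries lay above in 4 members and below in 0, against 2.70% and 2.50% of all genes. DESeq2 called 2, both higher. The 1 member called by edgeR was Gclm, the regulatory subunit of the enzyme that starts glutathione synthesis. It measured 103, 123, 120 and 106 CPM against 72.7, 75.9, 79.2 and 73.7 CPM (log2 0.59, SE 0.12, adjusted p = 0.0268). Gclm was 0.87 above control in THI + CTD (adjusted p = 1.69e-06) and at 0.28 in IMZ + CTD (adjusted p = 0.194). The 9 measured AHR targets had a median of 0.07, which turned to -0.13 without IMZ + CTD replicate 1, and none was called by either test. The 1 at an unadjusted p under 0.05 in edgeR was Aldh3a1, which was lower in THI + CTD (log2 -1.81, unadjusted p = 0.0174). Cyp1a1, the P450 most closely tied to AHR, measured 11.03, 16.5, 9.82 and 9.67 CPM against 4.55, 6.33, 4.35 and 2.63 CPM, with no overlap but an adjusted p of 0.548 (log2 1.39, SE 0.79). In the edgeR fit of only these 2 groups the adjusted p of Cyp1a1 was 0.0185. Of the others, Cyp1a2 (log2 0.08, 95% confidence interval -0.35 to 0.51), Tiparp (0.09, -0.21 to 0.40), Nqo1 (0.07, -0.55 to 0.69) and Nfe2l2 (0.07, -0.13 to 0.28) were well expressed and overlapped. Aldh3a1, Cyp1b1, Ahrr and Cyp2s1 stayed below 1 CPM in all 8 libraries.

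Clock genes that peak with Dbp had a median log2 difference of 0.61 over 17 members. A pair of factors of the PAR bZIP family, which carry the clock signal to metabolic genes, rose in THI + CTD relative to IMZ + CTD, none of the 17 fell and 15 did not pass the test. Dbp measured 6.22, 4.48, 5.32 and 4.63 CPM in THI + CTD and 2.43, 2.30, 2.76 and 2.86 CPM in IMZ + CTD (log2 1.00, SE 0.20, adjusted p = 0.0268). Hlf measured 5.01, 10.2, 10.1 and 7.29 CPM against 3.38, 3.35, 2.82 and 3.50 CPM (log2 1.32, SE 0.27, adjusted p = 0.0268). Here the IMZ + CTD group was the one away from control. Dbp was below control in IMZ + CTD (log2 -1.09, adjusted p = 0.000968) and at -0.10 in THI + CTD (adjusted p = 0.794), and Hlf was at -1.0 (adjusted p = 0.0211) and 0.32 (adjusted p = 0.472). The hour at which the animals were killed is not given in the sources used here, and its part in these values was not tested.

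Promoters of 3 further members are shown because they hold, within the 250 bases before the start of transcription, the short motifs by which clock factors act. These are the E-box CACGTG, bound by the Arntl and Clock proteins, and the D-box TTATGTAA, bound by Dbp, Hlf and Tef, searched on both strands. The sequences are those of RefSeq on build GRCr8, printed 5′ to 3′ along the strand of the gene with the motif in capitals. Tef lies on the plus strand (chr7:115206577-115206826), Nr1d1 on the minus strand (chr10:84229455-84229704, 1 of 2 starts listed) and Per2 on the minus strand (chr9:99496994-99497243).
Tef: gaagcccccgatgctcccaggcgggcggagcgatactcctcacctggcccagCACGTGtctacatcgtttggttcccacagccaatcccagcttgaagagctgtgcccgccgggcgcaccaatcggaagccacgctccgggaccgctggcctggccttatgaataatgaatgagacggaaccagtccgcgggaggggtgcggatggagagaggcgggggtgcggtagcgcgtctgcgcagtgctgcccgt
Nr1d1: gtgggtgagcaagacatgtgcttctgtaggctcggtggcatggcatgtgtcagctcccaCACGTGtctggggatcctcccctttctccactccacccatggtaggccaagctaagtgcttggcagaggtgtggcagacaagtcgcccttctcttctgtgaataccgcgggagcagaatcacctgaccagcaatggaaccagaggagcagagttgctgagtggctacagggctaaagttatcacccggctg
Per2: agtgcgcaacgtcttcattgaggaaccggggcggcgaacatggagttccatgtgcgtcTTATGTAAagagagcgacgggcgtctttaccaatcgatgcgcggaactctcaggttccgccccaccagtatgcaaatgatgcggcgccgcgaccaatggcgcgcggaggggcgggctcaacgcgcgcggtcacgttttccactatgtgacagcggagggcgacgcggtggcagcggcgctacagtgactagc

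The E-box starts at position -198 in Tef and -191 in Nr1d1, and the D-box at -192 in Per2. Of the 19 clock genes with a promoter in the RefSeq table, 5 (26.3%) held an E-box in this window, against 6.18% of all 27457 genes of the table. These were Tef, Nr1d1, Ciart, Bhlhe40 and Bhlhe41. A D-box was held by 1 (5.26%), Per2, against 0.885% of all genes of the table. The called genes Dbp and Hlf were not among the holders of either motif, and Hlf had no promoter in the table. The 3 genes shown were not called and did not move alike. Tef measured 25.4, 26.98, 33.1 and 24.8 CPM in THI + CTD and 17.99, 15.95, 16.5 and 22.1 CPM in IMZ + CTD, without overlap (log2 0.61, SE 0.21, adjusted p = 0.253). Per2 measured 11.3, 32.2, 42.7 and 22.2 CPM against 17.3, 7.32, 8.32 and 6.13 CPM, with an overlap at 1 rat of each group (log2 1.48, SE 0.46, adjusted p = 0.217). Nr1d1, the repressor Rev-erb alpha, went the other way, with 0.891, 0.535, 0.511 and 0.354 CPM against 1.26, 3.75, 0.617 and 2.70 CPM (log2 -1.86, SE 0.73, adjusted p = 0.353). Tef and Per2 were named for their promoters after their values had been seen.

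Across the 17 genes, 15 differences were above 0 and 2 below, and DESeq2 called 4, all higher, against 0.477% of all genes. All THI + CTD libraries lay above in 6 members and below in 1, against 2.70% and 2.50% of all genes. The median stayed between 0.54 and 0.75 with any library left out, and 0 to 2 members were then called. Per1, a repressor of the clock, measured 9.95, 7.69, 10.99 and 12.7 CPM against 6.43, 3.92, 8.11 and 9.41 CPM and overlapped (log2 0.57, SE 0.30, adjusted p = 0.51). Of the 8 genes that peak with Arntl, in the opposite phase, edgeR called none and DESeq2 called 2, both higher. At an unadjusted p under 0.05 were 5 of the 8, against 10.4% of all genes. The median was 0.04 and fell to 0.00 without THI + CTD replicate 3. Arntl itself was nearly equal, with 50.0 to 59.4 CPM against 52.7 to 61.9 CPM (log2 -0.03, 95% confidence interval -0.18 to 0.11), as was Clock, its partner (0.12, -0.11 to 0.35). Npas2 (log2 -0.52, adjusted p = 0.383) and Nfil3 (-0.39, adjusted p = 0.23) lay lower and Cry1 (0.71, adjusted p = 0.159) and Rora (0.41, adjusted p = 0.105) higher in THI + CTD without overlap between the groups. Cdkn1a (-0.32, adjusted p = 0.707) and Gadd45a (1.04, adjusted p = 0.223), which stand in the list for their phase, overlapped.

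**Figure D3:**
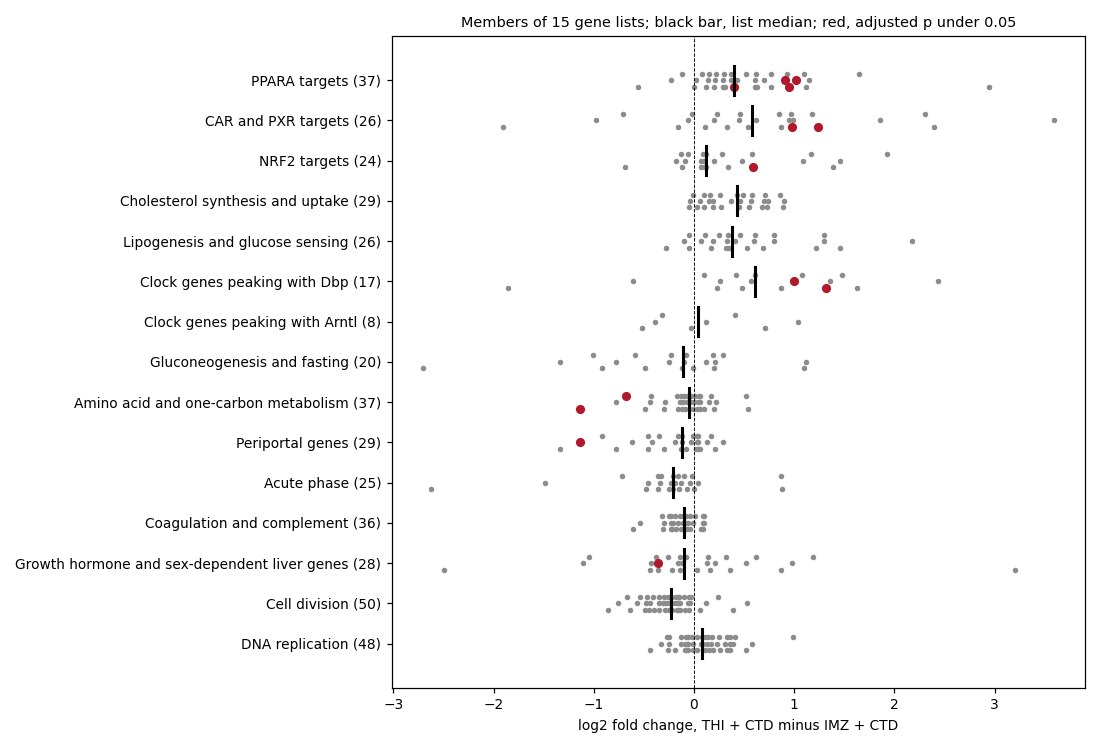
Each point is 1 member of a list, placed by its log2 fold change of THI + CTD minus IMZ + CTD, with the number of measured members after the name of the list. Black bars mark the medians, from 0.61 for clock genes peaking with Dbp to -0.23 for cell division, and the larger red points are members with an adjusted p under 0.05.

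Genes of lipid synthesis had positive list medians, with no single member past the threshold. Of 29 genes of cholesterol synthesis and uptake, 26 differences were above 0 with a median of 0.43. The THI + CTD libraries were all above in 9 and all below in none, against 2.70% and 2.50% of all genes. edgeR called none, and 15 were higher and none lower at an unadjusted p under 0.05, against 5.35% and 5.02% of all genes. DESeq2 called 5, against 0.950% of all genes. Cyp51, the lanosterol demethylase that azole fungicides target in fungi, measured 617, 570, 647 and 715 CPM in THI + CTD and 498, 402, 556 and 429 CPM in IMZ + CTD. The groups were separate by a narrow margin, and the log2 difference was 0.43 (SE 0.16, adjusted p = 0.321). Of 26 genes of lipogenesis and glucose sensing, 22 differences were above 0 with a median of 0.38. edgeR called none, 10 were higher at an unadjusted p under 0.05 (5.35% of all genes), and DESeq2 called 2 (0.950% of all genes). This list was divided inside the THI + CTD group: the mean of its members relative to control was -0.12, 0.80, 0.81 and -0.46 in the 4 rats, and -0.12, -0.04, -0.11 and -0.33 in IMZ + CTD. Fasn, fatty acid synthase, chosen here after its values had been seen, measured 991, 3252, 2860 and 796 CPM in THI + CTD and 616 to 1007 CPM in IMZ + CTD (log2 1.30, SE 0.41, adjusted p = 0.217). Without THI + CTD replicate 2 the median of the list was 0.29 and without replicate 4 it was 0.57.

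The genes that fell included 3 enzymes of amino acid breakdown. Of 37 genes of amino acid and one-carbon metabolism, 2 fell in THI + CTD relative to IMZ + CTD, none rose and 35 did not pass the test, and the list median was -0.05. Cdo1, the dioxygenase that disposes of cysteine, measured 890, 731, 693 and 794 CPM in THI + CTD and 1172, 1287, 1155 and 1375 CPM in IMZ + CTD. All 4 rats of one group lay below all 4 of the other by a wide margin (log2 -0.68, SE 0.11, adjusted p = 0.00444). Tdo2, which opens the ring of tryptophan, measured 410, 461, 420 and 377 CPM against 842, 1021, 715 and 1105 CPM (log2 -1.14, SE 0.23, adjusted p = 0.0268). Tdo2 was also the 1 member called of 29 periportal genes, whose median was -0.12. At an unadjusted p under 0.05, 10 of the 29 were lower and none higher, against 5.02% and 5.35% of all genes. Of all genes, 0.0553% were called lower. Amdhd1, an enzyme of histidine breakdown, measured 93.3, 98.2, 97.2 and 114 CPM against 276, 275, 176 and 249 CPM (log2 -1.28, SE 0.24, adjusted p = 0.0241).

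For these enzymes THI + CTD was the group away from control. Against control, 1.71% of all genes fell in THI + CTD. Cdo1 was at -0.47 against control in THI + CTD (adjusted p = 0.00297) and at 0.22 in IMZ + CTD (adjusted p = 0.302). Tdo2 was at -1.05 (adjusted p = 0.00269) and 0.10 (adjusted p = 0.876), and Amdhd1 at -1.25 (adjusted p = 0.00078) and 0.02 (adjusted p = 0.995). In the 3 rats given CTD alone, at a higher dose, Cdo1 measured 698 to 737 CPM and Tdo2 491 to 651 CPM.

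Of 28 growth hormone and sex-dependent liver genes, 1 fell, none rose and 27 did not pass the test. Stat5b, the transcription factor that carries the growth hormone signal in hepatocytes, measured 69.8, 74.6, 77.1 and 69.0 CPM in THI + CTD and 93.0, 86.9, 97.7 and 96.0 CPM in IMZ + CTD (log2 -0.36, SE 0.08, adjusted p = 0.0332). Its groups were separate, but it lost the call in all 8 fits with 1 library left out. The median of the list was -0.10, and 13 of the 28 differences were above 0. At an unadjusted p under 0.05, 8 members were lower and 4 higher, against 5.02% and 5.35% of all genes. In 8 members all THI + CTD libraries lay below and in 2 above, against 2.50% and 2.70% of all genes. Of genes with a mean log2 CPM above 0, these shares were 3.61% and 4.10%. The latter were Cyp2d4 (log2 0.52, adjusted p = 0.155) and Cyp2c11, the male-specific P450, below 2 CPM in all 8 libraries (log2 3.20, adjusted p = 0.449). Of those below, 3 were A1bg, a plasma glycoprotein, with 2252 to 3448 CPM against 5928 to 7009 CPM (log2 -1.11, adjusted p = 0.208), Prlr, the prolactin receptor, with 146 to 225 CPM against 267 to 502 CPM (log2 -1.05, adjusted p = 0.217), and Stac3, with 8.18 to 21.7 CPM against 57.1 to 139 CPM (log2 -2.50, adjusted p = 0.238). These 5 genes were chosen after their values had been seen. The difference with the largest size of all 35 belonged to a gene without a symbol, ENSRNOG00000037549. It measured 138, 144, 225 and 128 CPM in THI + CTD and 1614, 2992, 2160 and 3644 CPM in IMZ + CTD, a 16.4-fold difference (log2 -4.04, SE 0.87, adjusted p = 0.0387). The 8 controls ran from 671 to 4270 CPM, the THI rats from 126.5 to 3631 CPM, the IMZ rats from 835 to 2411 CPM, the CTD rats from 212 to 450 CPM and the THI + IMZ rats from 23.1 to 5925 CPM. Within THI and within THI + IMZ, single rats thus differed by more than the 2 groups compared. It too lost the call in each fit with 1 library left out, with a log2 difference between -4.25 and -3.83.

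Several called genes belong to no list. Grin2c, a subunit of the NMDA glutamate receptor, had the highest fold among the genes that rose: 7.52, 9.77, 8.73 and 12.0 CPM in THI + CTD and 1.51, 1.85, 1.59 and 2.83 CPM in IMZ + CTD (log2 2.29, SE 0.44, adjusted p = 0.0244). It was at 0.0244 to 0.289 CPM in the controls, and thus above control by 5.77 on the log2 scale in THI + CTD (adjusted p = 2.06e-10) and by 3.48 in IMZ + CTD (adjusted p = 6.7e-05). Paqr7, a membrane receptor for progestins, measured 52.7, 38.5, 37.0 and 52.8 CPM against 26.3, 18.9, 18.4 and 16.2 CPM (log2 1.18, SE 0.18, adjusted p = 0.00444). Plekha4 (log2 1.2, adjusted p = 0.0268) and Tmprss2, a membrane serine protease (log2 1.04, adjusted p = 0.0378), also rose without overlap. The 8 genes that rose and are not described one by one were Fbxo27, Lama3, Fzd4, Vav2, Myo19, Stk24, Syncrip and Slc25a10. Their log2 differences ran from 0.42 (Slc25a10, a mitochondrial dicarboxylate carrier) to 1.94 (Fbxo27, below 1 CPM in all 8 libraries).

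Ky, a protease gene known from muscle, fell, with 2.19, 4.48, 3.13 and 2.20 CPM in THI + CTD and 11.5, 10.99, 5.47 and 8.64 CPM in IMZ + CTD (log2 -1.60, SE 0.34, adjusted p = 0.0351). Its controls ran from 11.2 to 32.5 CPM. The paper reports that qPCR did not match sequencing in direction for Ky. Arrdc4, an arrestin-like protein that responds to glucose, fell from 10.6, 14.3, 16.96 and 14.9 CPM in IMZ + CTD to 8.14, 6.04, 6.09 and 7.77 CPM in THI + CTD (log2 -1.02, SE 0.21, adjusted p = 0.0279). Ypel3 (log2 -0.84, adjusted p = 0.0387) fell likewise. Rpl41, a ribosomal protein gene, fell by 0.41 on the log2 scale (adjusted p = 0.0411), and as such genes have many near-identical copies its counts are uncertain. Next in order of p, Ptpdc1 (log2 -0.74, adjusted p = 0.0545), Trac, the constant chain of the T cell receptor (-0.66, adjusted p = 0.0644), and Psmb10 (-0.43, adjusted p = 0.0649) missed the threshold.

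Cell division genes were raised in both mixtures and did not separate them. Of 50 measured members, 42 rose against control in THI + CTD and 42 in IMZ + CTD, with medians of 1.96 and 2.20 on the log2 scale, where 2.67% and 1.00% of all genes rose and 4.39% and 1.46% changed in either direction. In the direct comparison edgeR and DESeq2 called 0 members, 0 were at an unadjusted p under 0.05. The list median was -0.23. Of the 50 differences, 45 were below 0 and 5 above. The mean of the list relative to control was 2.00, 2.18, 2.03 and 0.76 in THI + CTD and 1.24, 2.00, 2.64 and 2.20 in IMZ + CTD, and the groups overlapped. The median was 0.00 without THI + CTD replicate 4, -0.02 without IMZ + CTD replicate 3 and -0.40 without IMZ + CTD replicate 1. Top2a, the topoisomerase of dividing cells, measured 15.95, 14.8, 16.3 and 4.53 CPM against 8.24, 13.4, 21.6 and 17.98 CPM (log2 -0.25, 95% confidence interval -1.26 to 0.77). Mki67, the proliferation marker, measured 10.8, 13.7, 15.6 and 4.38 CPM against 6.28, 11.7, 16.3 and 13.4 CPM (log2 -0.10, -1.06 to 0.86).

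**Figure D4:**
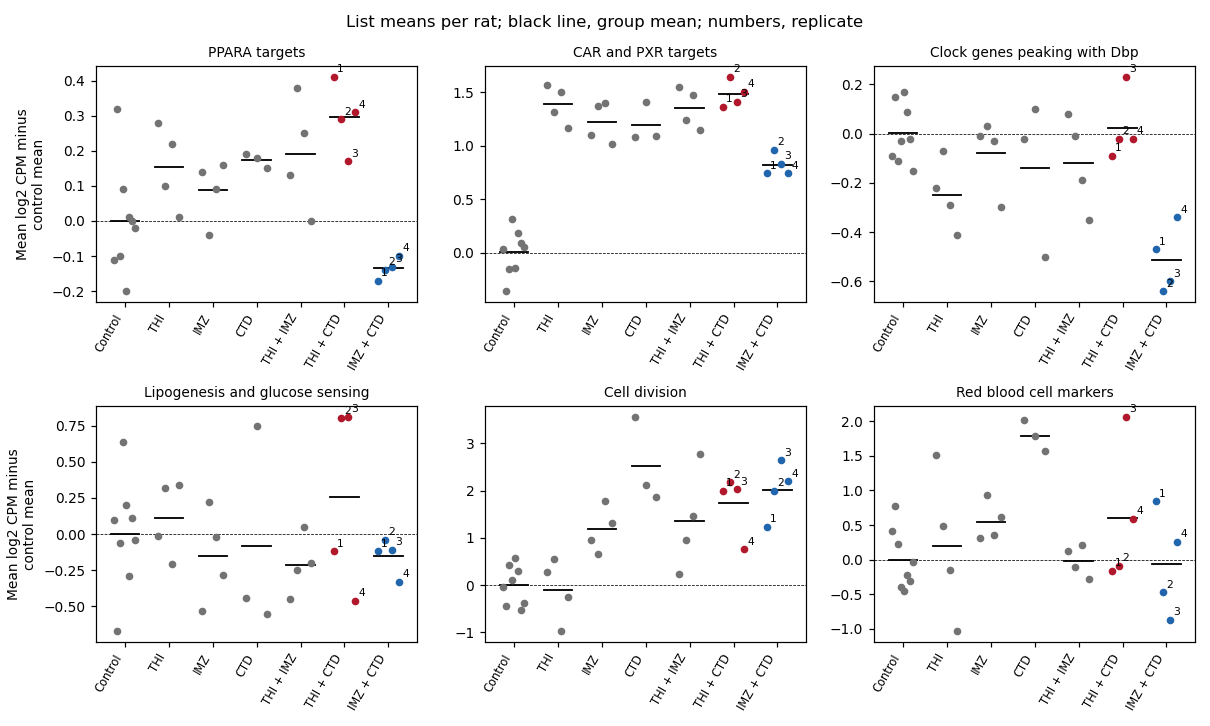
Mean log2 CPM of the members of 6 lists in each rat, relative to the mean of the 8 controls, with black lines at the group means and replicate numbers beside the THI + CTD (red) and IMZ + CTD (blue) rats. The colors are apart for PPARA targets, CAR and PXR targets and clock genes peaking with Dbp, and overlap for lipogenesis, cell division and red blood cell markers.

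Among the 10 genes the study chose for qPCR, read here from the sequencing counts, Ky was the 1 called. The paper reports matching directions of regulation in sequencing and qPCR for all genes except Ky. Mme, the membrane endopeptidase neprilysin, measured 16.1, 14.9, 17.9 and 16.5 CPM in THI + CTD and 1.23, 7.21, 6.79 and 8.99 CPM in IMZ + CTD (log2 1.43, SE 0.41, adjusted p = 0.161). Its groups were separate, and both were above the controls, which did not exceed 0.830 CPM. The paper reports that sequencing underestimated the rise of Mme relative to qPCR. Cyp7a1, the rate-limiting enzyme of bile acid synthesis, varied most, with 108, 110, 132 and 46.7 CPM against 46.0, 70.0, 204 and 29.7 CPM (log2 0.19, 95% confidence interval -0.95 to 1.32). Megf11, a membrane protein lower than control in both mixtures (log2 -1.80 and -1.81), had nearly the same mean in both, 5.26 ± 1.05 and 5.23 ± 1.56 CPM (SD, n = 4 each; log2 0.01, 95% confidence interval -0.43 to 0.45). Eln, the gene of elastin, overlapped (log2 -0.16, -0.80 to 0.49).

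The exchange of THI for IMZ can also be read without CTD, from the rats given THI or IMZ alone, which share no library with the mixtures. The doses there were higher, 108 and 93 mg/kg bw/day, so the values stand side by side and were not tested against each other. THI and IMZ alone differed in 2 genes (0.0100%), Tp53inp1 and Cdkn1a, both lower in THI, and in 1026 genes (5.15%) at an unadjusted p under 0.05, 2.52% of all genes higher and 2.64% lower. DESeq2 called 12. Without single rats the count was 0 to 2, and it was 0 without THI replicate 2 or 4 and without IMZ replicate 2, 3 or 4. Neither gene was among the 35, of which 20 had the same sign in THI minus IMZ and 15 the opposite one. Grin2c was higher in THI alone (log2 1.36, unadjusted p = 0.00271), Acot12 too (0.26, unadjusted p = 0.000683), and Ky was lower (-1.02, unadjusted p = 0.00412). The PPARA targets named above lay on the other side or near 0, with Acot3 at -0.23 (unadjusted p = 0.172), Acot2 at -0.29 (0.126), Pex11a at -0.12 (0.485) and Eci2 at 0.04 (0.662). Dbp was at -0.44 (unadjusted p = 0.0334), Paqr7 at -0.40 (0.0353), Por at 0.12 (0.629), Tdo2 at 0.17 (0.467) and Cdo1 at 0.06 (0.607). List medians of THI minus IMZ were 0.04 for PPARA targets, 0.11 for CAR and PXR targets and -0.04 for clock genes peaking with Dbp. For cell division, which did not separate the mixtures, the median was -1.28, with 33 of 50 members lower and none higher at an unadjusted p under 0.05.

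**Figure D5:**
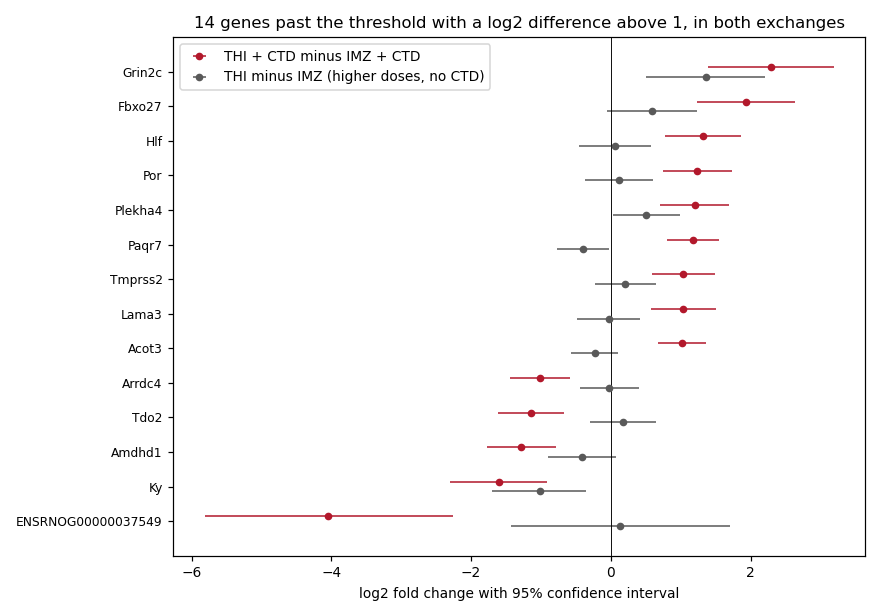
Log2 fold changes with 95% confidence intervals of the 14 called genes that differed by more than 1 on the log2 scale, in red for THI + CTD minus IMZ + CTD and in grey for THI minus IMZ without CTD and at higher doses. The genes were selected on the red values, and most grey intervals, such as that of Por around 0.12, include 0.

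No marker of another cell type was called, but some summed levels lay apart. The summed markers of B and plasma cells (12 genes) were 7.40 to 10.4 CPM in THI + CTD and 11.2 to 15.3 CPM in IMZ + CTD, and those of sinusoidal and other endothelial cells (24 genes) 602 to 668 CPM against 710 to 734 CPM, both without overlap and without a member called. Of the B and plasma cell markers 1 was at 0 in all 8 libraries, and of the endothelial markers none was. The mean log2 level per rat relative to control, over members with a mean log2 CPM above 0, overlapped for both. It was -0.22 to -0.11 against -0.12 to 0.08 for endothelial cells (23 genes). Only 1 of the 12 B and plasma cell markers reached that level, with -1.28 to -0.65 against -0.87 to 0.09. The sums of markers of Kupffer cells and macrophages (19), T and NK cells (23), stellate cells and fibroblasts (27), cholangiocytes (14), neutrophils (14) and pancreas (14) overlapped. Red blood cell markers (10) summed to 36.5 to 223 CPM against 22.5 to 73.9 CPM, the highest in THI + CTD replicate 3, and their median of 0.79 fell to 0.20 without that rat. None passed the test: Hbb was at 1.34 (adjusted p = 0.387), Hba1 at 1.05 (0.491), Hba2 at 1.00 (0.541), Alas2 at 1.57 (0.471) and Slc4a1 at 0.41 (0.568). Hbb-b1 reached 5.07 CPM in that rat, and Ahsp, Klf1 and Epb42 stayed below 1 CPM. Of the hepatocyte markers, Serpina1 was lower in THI + CTD in all 4 rats (log2 -0.38, adjusted p = 0.0938) and Alb was at -0.35 (adjusted p = 0.438), while Apoa1, Apob, Ttr, Tf, Fgb, Ahsg, Apoh and Cps1 lay between -0.17 and 0.06. The part of these cells in the 35 differences was not tested.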

How the data were processed

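The deposited counts are raw read counts per gene, made by the authors with STAR 2.5.2b on Rnor_5.0 after FastQC 0.11.5 and adapter trimming with Skewer, from a stranded total RNA kit. The strand setting of the counting is not given in the sources used here. A second deposited table, a normalized signal, equalled counts divided by size factors (authors' DESeq2 1.15.1; relative deviation at most 5.3e-15) and entered no test. Groups came from the sample labels.

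Counts were tested with edgeR 4.0.16 (R 4.3.3; TMM, older quasi-likelihood method) in 1 model with 7 group means over 31 libraries (24 residual degrees of freedom, biological coefficient of variation 19.4%). The Benjamini-Hochberg adjustment ran over 19904 genes, 17144 of them with a symbol, and the threshold was 0.05. Log2 CPM used a prior count of 2. Standard errors (SE) were obtained from each log2 difference and the root of its F statistic. DESeq2 1.42.0 was an alternative. On simulated data the pipeline made 6 false calls beside 200 changed genes. The members and the 47 gene lists (1056 of 1108 genes matched) were chosen with earlier results of these data known. Named are, by rule, up to 12 genes per direction with the largest log2 differences among called genes with a symbol, mean log2 CPM above 0 and groups without overlap (filled by p), called list members (at most 4 per direction), the qPCR panel, 9 fixed genes and lists of at most 10 members. Some of these genes are not reported here. Python 3.11.15, pandas 2.3.3 and matplotlib 3.10.9 made tables and plots. Alternatives were size factors, gene filters, thinned counts, a fit of the compared groups, a replicate block, single libraries left out and, chosen after seeing the data, the newer quasi-likelihood method.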

Additional observations from a re-analysis of the deposited data

Results flagged for a closer look

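Each value here was set apart from the other 3 rats of its group by a Dixon test, applied 180 times, of which 8 were past the limit. Chance alone marks about 1 in 20 groups. THI + CTD replicate 4 accounted for 5 of them. Its cell division genes had a mean of 0.76 above control on the log2 scale against 2.00 to 2.18 in the other rats, and Top2a measured 4.53 CPM against 14.8 to 16.3 CPM. The same rat had the lowest hepatocyte markers, -0.21 against -0.04 to -0.02 on the log2 scale, and the lowest Plekha4, 3.01 against 5.47 to 6.02 CPM. Its Abcb1a was the highest, 66.0 against 50.5 to 50.9 CPM. IMZ + CTD replicate 3 was high for Mgll, 99.6 against 92.3 to 92.7 CPM, and for Arntl, 61.9 against 52.7 to 53.9 CPM. In IMZ + CTD replicate 1 the p53 targets had a mean of 0.11 on the log2 scale relative to control, against -0.16 to -0.12.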

How the results depend on the processing

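The number of genes called moved with the test and the samples. In THI + CTD against IMZ + CTD it was 35, 189 with DESeq2, 86 with only the groups compared in the fit (25 of the 35), and 3 to 31 with 1 library left out. THI + CTD against control gave 873, 1386 with DESeq2 and 450 to 744 with 1 library left out. IMZ + CTD against control gave 290, 595 with DESeq2 and 98 to 366 with 1 library left out. THI against IMZ gave 2, 12 with DESeq2 and 0 to 2 with 1 library left out. The 10 genes lost in the fit of only the groups compared were Lama3, Mgll, Myo19, Syncrip, Slc25a10, Eci2, Acot12, Stat5b, Rpl41 and Ypel3, with adjusted p from 0.0573 (Eci2) to 0.163 (Syncrip). The cause of these shifts was not tested. Replicate numbers did not pair the samples, since the correlations of same-numbered deviations ran from -0.18 to -0.01. A replicate block gave 50 genes (31 of the 35), 348 and 80 genes against control for THI + CTD and IMZ + CTD, and 3 for THI against IMZ. Size factors, gene filters, thinned counts and the newer quasi-likelihood method kept all 35 genes. With 1 library left out, some uncalled genes changed sign: Cyp1b1 -1.85 to 0.13, Tiparp -0.02 to 0.15, Nqo1 -0.20 to 0.34, Arntl -0.08 to 0.02, Cyp7a1 -0.10 to 1.03, Eln -0.29 to 0.07, Megf11 -0.11 to 0.23, Apoa1 -0.07 to 0.20, Tf -0.07 to 0.08, Fgb -0.08 to 0.05, Cps1 -0.12 to 0.12, Hba2 -0.13 to 1.61, Hbb-b1 -0.31 to 0.92, Klf1 -0.75 to 0.97, Top2a -0.45 to 0.03 and Mki67 -0.31 to 0.16 (log2). Cyp2s1 was at 0.06 with thinned counts. What depth limits was tested only by thinning to equal depth, which called 36 genes.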
